A study of Bos taurus with 94 samples.

Results

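ENSBTAG00000036116 and ENSBTAG00000032236 are the 2 bovine genes that led both the forestomach and the large intestine, out of 24616 genes measured. They were chosen from these same data. By difference in mean log2(FPKM + 1), they held the first places for the forestomach against the other 90 libraries (12.07 and 10.99) and for the large against the small intestine (8.17 and 10.22). FPKM counts fragments relative to transcript length and to all mapped fragments of a library, and 1 was added before taking logs. The gene just outside the choice had a difference of 10.89 in the forestomach and 8.01 in the large intestine. These differences define the pair and are given as a description, with no test.

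RNA sequencing covered 94 libraries of Hereford cattle tissues, none labelled with a treatment, in 35 tissue groups. The age label is adult throughout, although 1 library is named as fetal testis. The forestomach group held rumen, rumen papillae, reticulum and omasum, and the large intestine group held caecum, ascending colon and descending colon. The small intestine group held duodenum, jejunum and ileum, and the group of upper digestive linings held superficial tongue, lower tongue and esophagus. No animal is named in the labels and nearly every tissue has 1 library, so the replicates of a group are different tissues and the p-values measure the spread between these libraries. The files do not pair the identifiers with names and 0 of 24616 could be matched to a symbol in the gene table used, so the function, position and sequence of both genes are not given here, and tissue labels could not be checked against marker genes.

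As background, the forestomach of cattle is a set of fermentation chambers lined by a keratinised stratified squamous epithelium, which takes up short chain fatty acids made by microbes. The caecum and colon also ferment plant material and absorb fatty acids, salt and water, but through a simple columnar epithelium. The small intestine digests with enzymes and absorbs through villi, while tongue and esophagus carry a squamous lining without fermentation.

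Total FPKM ran from 585122 to 1062591 over the libraries, and their read depth is not known. Each of the 4 forestomach libraries was closest in profile to another forestomach library, by Spearman correlation over 18031 genes. The caecum and descending colon were closest to the ileum (0.950 and 0.948), and the ascending colon to the descending colon (0.927). The esophagus library was closest to the reticulum (0.930), followed by the superficial tongue (0.926). The vesicular gland and the subcutaneous fat, which recur below, were closest to each other (0.970). The prostate, also named below, was closest to the normal outer eye layer (0.922), and mammary replicate 1 to the pineal gland (0.858). Other unlike labels were paired too, such as the gall bladder with the diaphragm (0.994).

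ENSBTAG00000036116 was among the most abundant transcripts of the forestomach. Its level was 11729 FPKM in the omasum, 8926 in the rumen papillae, 7851 in the reticulum and 7533 in the rumen. It ranked 7th in the omasum, 10th in the papillae and in the reticulum and 11th in the rumen among all genes of each library, and held 0.939 to 1.46% of the library's FPKM. The 4 libraries, from 3 chambers since the papillae belong to the rumen, lay within a narrow range, at 9009 ± 1908 FPKM (SD, n = 4), with the omasum highest.

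ENSBTAG00000032236 followed the same order of libraries at a lower level. It stood at 4840 FPKM in the omasum, 4120 in the rumen papillae, 3607 in the reticulum and 3281 in the rumen, a mean of 3962 ± 680 FPKM (SD, n = 4). It ranked 18th, 25th, 26th and 37th in these libraries. Every forestomach library was above every other library for both genes, which 0.388% of the 18031 genes tested also showed, and this is part of what the pair was chosen for.

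In the large intestine the order of the genes was the other way round. ENSBTAG00000036116 stood at 617 FPKM in the caecum, 278 in the ascending colon and 195 in the descending colon. ENSBTAG00000032236 stood at 2030 FPKM in the caecum, 1058 in the ascending colon and 786 in the descending colon. Both genes were highest in the caecum and lowest in the descending colon. The means were 363 ± 223 FPKM for ENSBTAG00000036116 and 1291 ± 654 FPKM for ENSBTAG00000032236 (SD, n = 3).

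The neighbouring gut segments carried almost none of either transcript. ENSBTAG00000036116 was listed at 0 in the duodenum and ileum and at 0.429 FPKM in the jejunum, and ENSBTAG00000032236 was listed at 0 in all 3. Both genes were higher in every large intestinal library than in every small intestinal one, which 4.8% of genes tested also showed, and this too was used in the choice. In the abomasum, the glandular stomach that lies between the forestomach and the small intestine, ENSBTAG00000036116 was listed at 0 and ENSBTAG00000032236 at 0.271 FPKM. Whether a listed 0 is a true absence or a failed estimate was not tested. Of 7350 genes that reach 1 FPKM in at least 90 libraries, 1708 are listed at 0 in 1 or more. Sparse libraries add to this count, such as the choroid plexus with 7353 genes at 1 FPKM or more, and their share was not counted. In such bulk tissue, fewer cells of a type and less RNA per cell cannot be told apart.

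**Figure D1:**
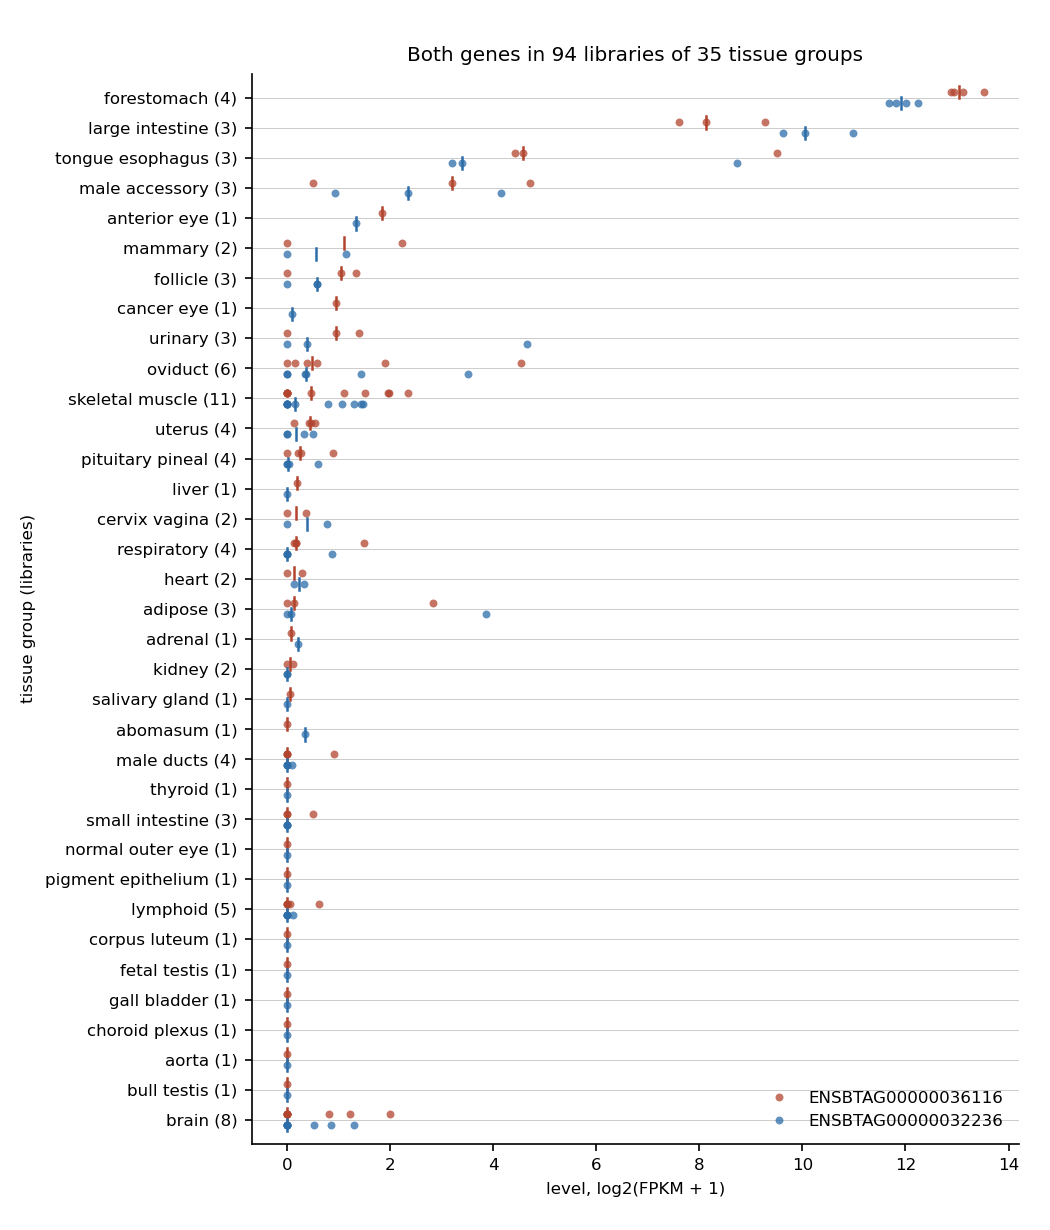
Level of both genes as log2(FPKM + 1) in 94 libraries, by tissue group in order of the median of ENSBTAG00000036116; each point is a library and each short bar a group median. Only the forestomach, the large intestine and 1 library of the tongue and esophagus group, the esophagus, lie at 100 FPKM or more, and most other groups lie at or near 0.

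The esophagus was the only library outside the forestomach and large intestine at 100 FPKM or more for either gene. ENSBTAG00000036116 reached 732 FPKM there and ENSBTAG00000032236 reached 427 FPKM. The superficial tongue had 20.5 and 8.16 FPKM and the lower tongue 23.0 and 9.61 FPKM of the same genes. For ENSBTAG00000036116 the esophagus therefore lay above all 3 large intestinal libraries, and for ENSBTAG00000032236 below all 3. Large intestinal levels above every library outside the forestomach were found for ENSBTAG00000032236 and for 0.139% of the genes tested.

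Tongue and esophagus (n = 3) were compared with the 84 libraries outside the forestomach and large intestine. All these libraries were part of the background that the pair was chosen against, so the comparison is a description and its p-values are not given. Both genes averaged higher in tongue and esophagus. The log2 difference was 5.58 ± 0.62 (SE) for ENSBTAG00000036116 and 4.65 ± 0.61 for ENSBTAG00000032236. The spread behind these errors was pooled with the 84 other libraries, so they do not measure the spread among tongue and esophagus. On the log2(FPKM + 1) scale ENSBTAG00000036116 lay at 9.52 in the esophagus, 4.43 in the superficial tongue and 4.59 in the lower tongue. ENSBTAG00000032236 lay at 8.74, 3.19 and 3.41 in the same libraries. The median over all 17989 genes of this contrast was -0.32. Genes called higher by limma made up 3.08% of them, and nothing is read from the place of the pair among these. Without the esophagus the differences were 3.91 and 2.83. Without the superficial tongue they were 6.45 and 5.61, and without the lower tongue 6.37 and 5.50. The groups overlapped, since the vesicular gland had 25.3 and 16.8 FPKM, above both tongue libraries.

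Outside these tissues the pair was low and patchy. In the 86 libraries other than forestomach, large intestine and esophagus, ENSBTAG00000036116 had a median of 0.101 FPKM, was listed at 0 in 37 and reached 1 FPKM in 20. ENSBTAG00000032236 had a median of 0, was listed at 0 in 47 and reached 1 FPKM in 15. The 15 libraries with ENSBTAG00000032236 at 1 FPKM or more all had ENSBTAG00000036116 at 1 FPKM or more too, and 5 further libraries had ENSBTAG00000036116 alone.

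For ENSBTAG00000036116 the highest levels among these 86 libraries were 25.3 FPKM in the vesicular gland, 23.0 in the lower tongue, 22.3 in the contralateral oviduct isthmus and 20.5 in the superficial tongue. The prostate followed with 8.16 FPKM and the subcutaneous fat with 6.13 FPKM. Each of these groups was uneven: the ipsilateral isthmus had 0.308 FPKM and the bulbourethral gland 0.423 FPKM. The 11 skeletal muscle libraries ran from 0 to 4.12 FPKM with a median of 0.377, and the 8 brain regions from 0 to 3.03 FPKM with a median of 0. In order of group medians, forestomach was followed by large intestine, tongue and esophagus, male accessory glands (8.16 FPKM) and anterior eye (2.58 FPKM). The large intestine range lay inside the range of tongue and esophagus (20.5 to 732 FPKM), the male accessory glands (0.423 to 25.3 FPKM) overlapped that group from below, and after the anterior eye neighbouring groups overlapped or had 1 library.

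For ENSBTAG00000032236 the highest levels among the same libraries were 24.2 FPKM in the ureter, 16.8 in the vesicular gland, 13.6 in the subcutaneous fat and 10.4 in the contralateral isthmus. The bladder was listed at 0 and the urethra at 0.319 FPKM, so the ureter stood alone in its group. In profile the ureter was closest to the vesicular gland (0.9415), followed by the subcutaneous fat (0.9412). Whether its level is particular to ureter tissue was not tested. The 11 skeletal muscle libraries ran from 0 to 1.77 FPKM with a median of 0.110, and the 8 brain regions from 0 to 1.48 FPKM with a median of 0. By group medians the order was forestomach, large intestine, tongue and esophagus, male accessory glands (4.13 FPKM) and anterior eye (1.55 FPKM). The first 3 groups did not overlap for this gene, with 786 FPKM as the lowest large intestinal level and 427 FPKM as the highest in tongue and esophagus, whereas the male accessory glands (0.913 to 16.8 FPKM) overlapped the third.

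Libraries of some other surface linings held little of either transcript. The cancer eye, whose profile was closest to the superficial tongue (0.923), had 0.927 FPKM of ENSBTAG00000036116 and 0.0661 FPKM of ENSBTAG00000032236. The fornix of the vagina had 0.287 and 0.727 FPKM. The normal outer eye layer, whose profile was closest to the prostate (0.922), was listed at 0 for both genes.

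The forestomach and the large intestine were then set side by side. The levels in both regions entered the choice of the pair, so the differences between them are a description with no p-value. ENSBTAG00000036116 was 24.8-fold higher in the forestomach by mean FPKM and ENSBTAG00000032236 was 3.07-fold higher. On the log2 scale the differences were 4.78 ± 0.34 (SE; 95% interval 4.004 to 5.55) and 1.72 ± 0.29 (1.06 to 2.37). No forestomach library overlapped a large intestinal one for either gene. Of 13017 genes in this contrast, limma called 6.17% higher in the forestomach and 24.6% in either direction, and 10.8% had all forestomach libraries above all large intestinal ones. By the size of the difference the genes took places 92 and 484, so both had many genes ahead of them in this contrast.

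**Figure D2:**
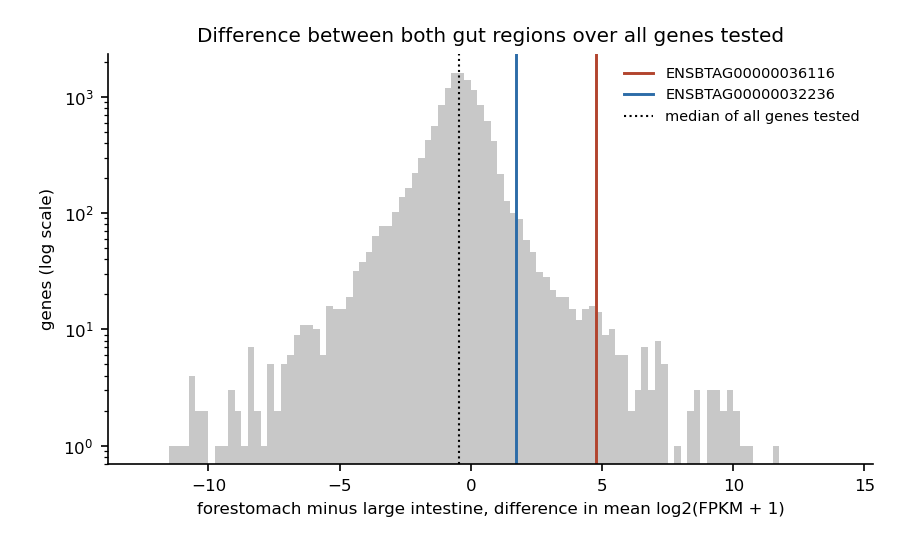
Forestomach (n = 4) minus large intestine (n = 3) as the difference in mean log2(FPKM + 1), x axis, for 13017 genes, counted on a log scale on the y axis. Vertical lines mark ENSBTAG00000036116 (4.78) and ENSBTAG00000032236 (1.72), both right of the median of all genes (-0.44).

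The median gene was lower in the forestomach by -0.44 on the log2 scale, and quantile normalization moved this median to 0.06. Relative to the median gene, ENSBTAG00000036116 was higher by 5.22 as deposited and by 4.66 after quantile normalization, and ENSBTAG00000032236 by 2.16 and 1.49. The share of called genes that were higher in the forestomach was 25% as deposited and 48.3% after quantile normalization. When all 94 libraries set the spread, the standard errors rose to 0.80 for ENSBTAG00000036116 and 0.79 for ENSBTAG00000032236.

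The ratio of both genes within a library does not depend on how that library was scaled, and it separated the gut regions. ENSBTAG00000036116 over ENSBTAG00000032236 was 2.42 in the omasum, 2.30 in the rumen, 2.18 in the reticulum and 2.17 in the rumen papillae. It was 0.304 in the caecum, 0.263 in the ascending colon and 0.248 in the descending colon. Within each region the ratio was nearly constant, at 2.27 ± 0.12 (SD, n = 4) and 0.272 ± 0.029 (SD, n = 3), although the levels themselves varied by more. The log2 ratios, with 1 added to each FPKM, differed by 3.06, or 8.34-fold, with 4 of 4 forestomach libraries above 3 of 3 large intestinal ones. The levels behind the ratio entered the choice of the pair, and the 35 arrangements of these libraries allow no two-sided exact permutation p below 0.0571, so the difference in ratio is also a description. FPKM is per kilobase, so levels can be set side by side, but the gene models behind both lengths, and whether the genes share reads through similar sequence, were not analysed here.

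**Figure D3:**
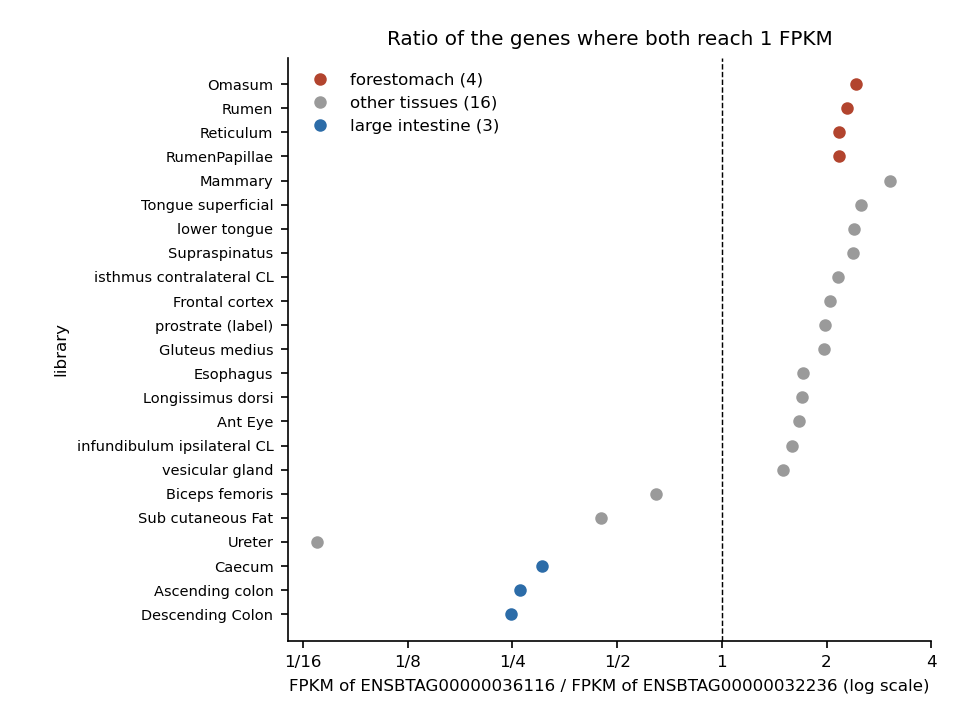
Ratio of the FPKM of ENSBTAG00000036116 to that of ENSBTAG00000032236, on a log scale, in the 23 libraries where both reach 1 FPKM; each point is a library and the dashed line marks equal levels. Forestomach libraries lie between 2.17 and 2.42, large intestinal ones between 0.248 and 0.304, and 13 of the 16 others lie right of the line.

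Elsewhere the ratio was mostly on the forestomach's side. Of 16 other libraries with both genes at 1 FPKM or more, 13 had a ratio above 1, from 1.502 in the vesicular gland to 3.04 in mammary replicate 1. The esophagus had 1.72, the superficial tongue 2.51, the lower tongue 2.39, the contralateral isthmus 2.15 and the prostate 1.98. The exceptions were the biceps femoris (0.649), the subcutaneous fat (0.450) and the ureter (0.0684). None of the 16 fell within the large intestinal range, and 2 fell within the forestomach range. Most of these libraries hold a few FPKM of each gene at an unknown depth, so the counting error of a single ratio is unknown.

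**Figure D4:**
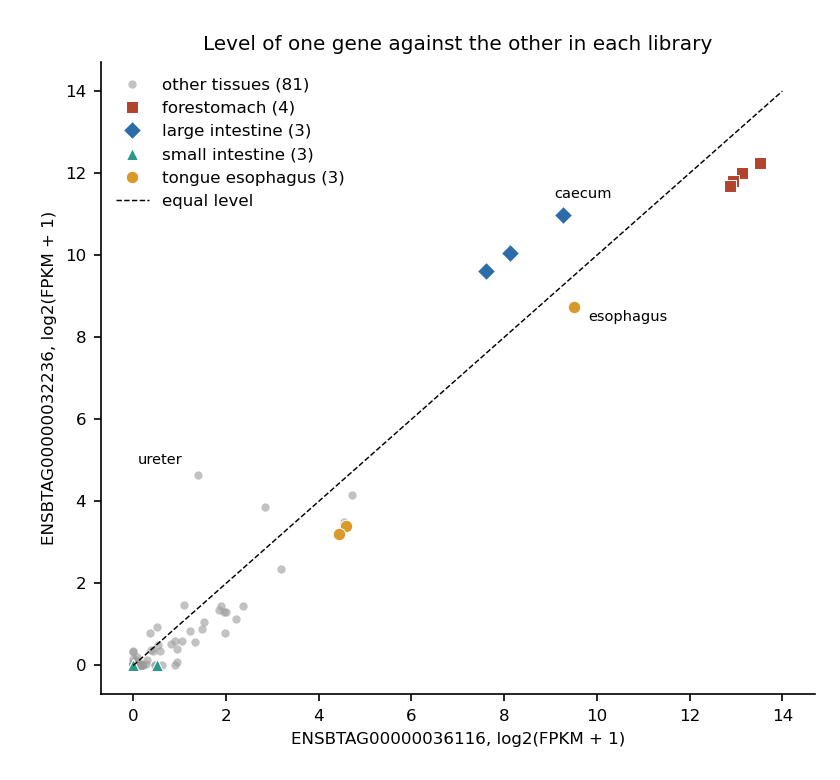
Level of ENSBTAG00000032236, y axis, against ENSBTAG00000036116, x axis, both as log2(FPKM + 1), in 94 libraries; the dashed line marks equal levels. The 3 large intestinal libraries lie above the line, the 4 forestomach libraries and the esophagus below it, and the small intestine sits at the origin or beside it.

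Few genes of the table had this distribution. Its definition was a lowest level over the 4 forestomach and 3 large intestinal libraries at least 2 on the log2(FPKM + 1) scale above both the highest small intestinal library and the median of the 84 remaining libraries. It held for 6 of 24616 genes, the pair among them with gaps of 9.62 for ENSBTAG00000032236 and 7.10 for ENSBTAG00000036116. ENSBTAG00000047250 came next with a gap of 3.87. It averaged 85.1 ± 15.8 FPKM in the forestomach (n = 4) and 45.3 ± 10.2 FPKM in the large intestine (n = 3), but its highest level was 209 FPKM in the abomasum, where the pair was at or near 0. ENSBTAG00000025260, with a gap of 2.35, averaged 2892 ± 1338 FPKM in the forestomach and 19.3 ± 5.55 FPKM in the large intestine, and reached 9722 FPKM in the superficial tongue. The other 2 had their highest level outside the gut regions in kidney cortex (654 FPKM) and liver (612 FPKM). The 4 genes beside the pair thus each had more than 100 FPKM in a tissue outside the forestomach and large intestine where the pair was below 100 FPKM. The pair itself passed 100 FPKM outside these regions in the esophagus only. It was chosen by its difference from other libraries, so its larger gaps and this contrast follow in part from the choice. A pseudocount of 0.1 in place of 1 gave 10 genes.

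The genes whose pattern was most like both members were ranked by the lower of their Pearson correlations with each, over log2(FPKM + 1) in 94 libraries that share tissues and possibly animals. The pair correlated with each other at r = 0.977, and at 0.878 over the 86 libraries without forestomach, large intestine and esophagus, a subset chosen after seeing the data. Both genes were chosen for high levels in the same libraries, so r = 0.977 follows in part from the choice. Their Spearman correlation over the 94 libraries was 0.860. Of 18029 other genes, ENSBTAG00000011941 was most like both (0.835 with ENSBTAG00000036116 and 0.809 with ENSBTAG00000032236). It had 2938 FPKM in the omasum, 1784 in the rumen papillae, 1507 in the rumen and 369 in the reticulum. In the large intestine it had 454 FPKM in the ascending colon, 56.2 in the descending colon and 44.0 in the caecum, so its highest segment was not that of the pair. It reached 1124 and 846 FPKM in the superficial and lower tongue and 44.2 FPKM in the esophagus, where the pair showed the opposite order.

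ENSBTAG00000004379 came second (0.782 and 0.784), by its lower value narrowly ahead of the third gene (0.844 and 0.776). It averaged 793 ± 212 FPKM in the forestomach (n = 4), 253 ± 84.4 FPKM in the large intestine (n = 3) and 90.4 ± 17.3 FPKM in the small intestine (n = 3), with 328 FPKM in the esophagus. It reached 1 FPKM in all 84 libraries outside the forestomach and intestine, with a median of 27.0 FPKM, so it shared the order of the gut regions with the pair but not the near absence elsewhere. By Spearman correlation its place fell to 335 and that of ENSBTAG00000011941 to 3.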

How the data were processed

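RNA sequencing of total RNA from 94 bovine tissue libraries was analysed from 1 table. The authors deposited FPKM values, per the file headers and sample descriptions. Per the submitters' processing notes HISAT2, StringTie and the genome build UMD3.1 were used; their versions, the annotation and any filters are not stated in the labels or headers. Libraries were grouped by tissue label. FPKM was analysed as log2(FPKM + 1), which understates folds of low genes. Genes with at least 1 FPKM in at least 3 libraries of a fit were tested by two-sided moderated tests in limma 3.58.1 (R 4.3.3, trended prior variance). Genes counted as called if they differed by 1 or more in log2 and their Benjamini-Hochberg adjusted p, over every gene in the fit, was below 0.05. These tests were first run on simulated data with known changes. Other steps used Python 3.11.15, numpy 2.4.6, scipy 1.17.1 and pandas 2.3.3. The gene table given (ARS-UCD2.0) holds no Ensembl identifier, and gene lists and cell type markers by symbol were not run. The genes named are the pair, the 2 most like both by correlation, and 2 genes with the shared distribution, which were chosen after their values were seen. The pair and the comparisons were chosen with earlier results of these data known, and the levels compared entered that choice, so the fits serve for sizes, errors and background shares and no p-value of the pair is given. Alternatives were other pseudocounts, no filter, equal totals, quantile normalization, a shared spread fitted by tissue group with equal group weights, and each library left out.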

Additional observations from a re-analysis of the deposited data

Results flagged for a closer look

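In the respiratory group ENSBTAG00000036116 was 1.80 FPKM in the nasal mucosa, while the other 3 libraries (larynx, trachea and lung) lay between 0.0980 and 0.135 FPKM. The gap to the nearest library was 0.965 of the group's range on the log2(FPKM + 1) scale, above the critical value of 0.829 for 4 libraries. It was the only one of 7 combinations of gene and group tested this way to pass. The respiratory group entered the test only through the nasal mucosa, the library then flagged. The usual rate of about 1 in 20 by chance therefore does not apply to it, and nothing is concluded from the pass. Tests covered groups of 4 to 10 libraries with at least 1 library at 1 FPKM or more. Smaller groups, the 11 skeletal muscle libraries and groups wholly below 1 FPKM were not tested.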

How the results depend on the processing

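No paired analysis was possible because the labels number no replicates and name no animal. The log2 differences of both genes kept their direction in all alternatives. For ENSBTAG00000032236 between forestomach and large intestine (1.72), the standard error rose from 0.29 to 0.79 with the spread from all 94 libraries. This larger error is given as a description, because the levels entered the choice of the pair. Leaving out 1 library at a time gave 4.42 to 5.24 for ENSBTAG00000036116 and 1.42 to 2.10 for ENSBTAG00000032236 between forestomach and large intestine, 3.91 to 6.45 and 2.83 to 5.61 for tongue and esophagus, and 2.998 to 3.14 for the difference in log2 ratio. The count of 3206 genes called between forestomach and large intestine ran from 1751 (without the descending colon) to 3454 when 1 library was left out, was 2025 without the ascending colon, and was 3530 with equal totals. The count of 731 for tongue and esophagus, 75.8% of them higher there, ran from 402 to 469 without 1 of its libraries. With the spread from all libraries it was 2196, of which 42.1% were higher in tongue and esophagus. That setting also gave each background tissue group equal weight, and the effect of the spread alone was not separated. The 6 genes with the shared distribution became 10 with a pseudocount of 0.1, 16 with a log2 gap of 1 and 3 with a gap of 3; the causes were not tested. Of the 2 genes most like the pair, 0 were kept by Spearman correlation, 1 with group means and 1 with a pseudocount of 0.1. Without read depth, levels below about 1 FPKM have no counting interval.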
